A study of Mus musculus with 12 samples.

Results

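The early-only set comprises 106 of the 12393 genes measured in mouse striatum. Its members differed between TIF-IA mutant and control mice at 9 weeks of age but little at 13 weeks. The members were chosen on the measured values. A gene was read from its brightest probe set by the mean of all 12 arrays, that mean was 5 or more on the deposited log2 scale, the mean mutant minus control difference at 9 weeks was at least 0.7 log2 in size, all 3 mutants lay on 1 side of all 3 controls at 9 weeks, and the difference at 13 weeks was at most 0.4 log2 in size. Of the 106 genes, 61 were higher in the mutants at 9 weeks (the rises) and 45 were lower (the falls). The differences at both ages are therefore given as a description, without a test.

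The study profiled C57Bl/6 mice in 4 groups of 3, 1 array per mouse. These were controls at 9 weeks, mutants at 9 weeks, controls at 13 weeks and mutants at 13 weeks. The mutants are labelled TIF-IA D1RCre, that is, TIF-IA deleted by a Cre driven by D1R regulatory sequence, and the labels do not state which alleles the controls carry. The animals at 13 weeks are other mice than those at 9 weeks, and the replicates are numbered as biological replicates, so that p-values measure the spread between mice. The stated aim was to follow gene expression linked to neuronal survival and death.

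TIF-IA, encoded by Rrn3, recruits RNA polymerase I to the promoters of the ribosomal RNA genes, and without it the synthesis of ribosomal RNA stops and nucleoli break up. D1R-Cre acts in D1-type medium spiny neurons, a main class of striatal projection neuron, while cells without active Cre, such as glia and vessels, keep the gene. The ribosomal proteins and the nucleolar assembly factors that package ribosomal RNA are made by RNA polymerase II, so their messages can be read on an array while ribosomal RNA itself cannot.

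The labels name medium spiny neurons as the cell type, but the RNA carried glial messages as well. The log2 value of Ppp1r1b, a marker of medium spiny neurons, was 12.88 to 13.39 over the 6 arrays at 9 weeks, and that of Mbp, a myelin gene, was 14.60 to 14.79. Gfap, an astrocyte gene, was 7.06 to 7.38 in controls and 7.52 to 8.98 in mutants at 9 weeks, and Aif1, a microglial gene, was 6.73 to 6.74 and 6.72 to 8.11. At 13 weeks the tissue of the mutants was far from that of the controls. Gfap was 13.00 to 13.29 in mutants against 6.96 to 7.50 in controls, and over the list of 42 medium spiny neuron genes the median difference was -2.11. Over the 11 reactive astrocyte markers, the mean shift from the 9 week controls was 5.21 to 5.91 in the mutants at 13 weeks, and over the 19 microglia markers it was 2.60 to 3.01. In such tissue fewer cells of a type and less RNA per cell cannot be told apart. Whether this change of the tissue takes part in the small 13 week differences of the members was not tested.

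Certain arrays stood apart from their group. The array of control mouse 3 at 13 weeks was at least 0.7 log2 from both other mice of its group in 30.1% of the 8253 genes tested and in 26 of the 106 members, 9 rises and 17 falls. For mutant mouse 3 at 9 weeks these figures were 8.08% and 10 members. That array also held thalamic or pallidal messages, with Slc17a6 at 7.99 and Calb2 at 7.74 against 2.69 to 3.20 and 2.65 to 3.11 in the other mutants of that age, and its microglia markers were 0.67 above the 9 week controls. Control mouse 1 at 13 weeks carried the same messages, with Slc17a6 at 7.08 and Calb2 at 8.0. By their Xist level, females made up 1 of 3 mice in either control group, 1 of 3 younger mutants and 3 of 3 older mutants. The female among the 13 week controls was mouse 3 (Xist 8.59 against 2.56 and 2.64). Every 13 week comparison without it therefore sets male controls against female mutants, so the array and sex cannot be told apart there. Without control mouse 3 at 13 weeks, 50 of the 61 rises and 29 of the 45 falls still met the rule. Among those that no longer did, the 13 week difference without that array was 0.76 for Plvap, 0.59 for Gemin7, -0.80 for Ralgps2, 0.69 for Wbp1l and -0.56 for Foxo3. Without mutant mouse 3 at 9 weeks, 46 rises and 34 falls did. In all 12 analyses that left out 1 array, 14 rises and 10 falls met it throughout.

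Promoter windows are shown for 5 members on which the results turn, namely Rrn3, the deleted gene, 3 rises from separate roles (Nop58, Mrps18c and Spr), and Rasl11b, the fall of greatest size. The windows come from RefSeq on the mouse build GRCm38.p6 and run from 250 bases before to 50 after the annotated start, 5′ to 3′ on the strand of the gene. Capitals mark matches on either strand to CACGTG (the E-box bound by MYC and USF proteins), CCGGAAG (an ETS-type motif) and GGGCGG (the GC box). The window of Rrn3 is chr16:13780449-13780748 on the plus strand, that of Nop58, a core protein of box C/D small nucleolar ribonucleoproteins, is chr1:59684756-59685055 on the plus strand, and that of Mrps18c, a protein of the small mitochondrial ribosomal subunit, is chr5:100798509-100798808 on the plus strand. The window of Spr, the sepiapterin reductase of tetrahydrobiopterin synthesis, is chr6:85137715-85138014 on the minus strand, and that of Rasl11b, a small GTPase of the Ras superfamily, is chr5:74195076-74195375 on the plus strand.
Rrn3: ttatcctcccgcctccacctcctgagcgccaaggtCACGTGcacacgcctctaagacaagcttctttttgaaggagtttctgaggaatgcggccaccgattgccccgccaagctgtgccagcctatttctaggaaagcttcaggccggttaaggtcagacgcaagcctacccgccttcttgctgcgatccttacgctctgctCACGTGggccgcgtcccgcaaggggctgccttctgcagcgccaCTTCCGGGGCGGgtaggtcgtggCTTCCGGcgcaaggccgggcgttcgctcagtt
Nop58: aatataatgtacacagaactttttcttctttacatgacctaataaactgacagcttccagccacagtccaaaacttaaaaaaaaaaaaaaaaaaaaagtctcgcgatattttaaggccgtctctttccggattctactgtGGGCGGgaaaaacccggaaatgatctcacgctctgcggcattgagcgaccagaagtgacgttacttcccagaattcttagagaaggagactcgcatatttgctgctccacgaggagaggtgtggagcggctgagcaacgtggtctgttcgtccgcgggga
Mrps18c: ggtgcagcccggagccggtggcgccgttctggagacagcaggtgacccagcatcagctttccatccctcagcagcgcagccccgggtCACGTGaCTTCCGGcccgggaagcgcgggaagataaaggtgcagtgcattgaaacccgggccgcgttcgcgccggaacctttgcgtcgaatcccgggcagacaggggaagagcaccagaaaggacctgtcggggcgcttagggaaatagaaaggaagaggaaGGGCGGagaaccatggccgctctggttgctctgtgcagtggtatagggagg
Spr: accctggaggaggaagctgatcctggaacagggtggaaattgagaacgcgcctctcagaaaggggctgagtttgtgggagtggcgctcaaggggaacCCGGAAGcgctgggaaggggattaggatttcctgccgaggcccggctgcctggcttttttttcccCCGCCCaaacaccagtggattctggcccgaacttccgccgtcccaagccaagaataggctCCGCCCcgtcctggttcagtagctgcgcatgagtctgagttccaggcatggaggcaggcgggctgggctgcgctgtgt
Rasl11b: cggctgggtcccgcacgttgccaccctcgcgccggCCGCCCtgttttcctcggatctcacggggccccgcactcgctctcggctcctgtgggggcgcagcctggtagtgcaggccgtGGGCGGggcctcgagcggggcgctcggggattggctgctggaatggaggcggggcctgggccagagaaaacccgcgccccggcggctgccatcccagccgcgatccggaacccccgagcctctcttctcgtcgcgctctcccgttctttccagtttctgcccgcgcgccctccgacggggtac

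Rrn3 held 2 copies each of CACGTG and CCGGAAG and 1 GC box, which overlaps one of the CCGGAAG copies. Of the members, 49 rises and 37 falls had a window in the RefSeq table, where the first listed window stood for a gene with several. CACGTG was found in 10.2% of the rises and 16.2% of the falls, against 10.6% of 6727 genes tested and 7.24% of all 27025 genes in the table. CCGGAAG was found in 28.6% of the rises and 18.9% of the falls, against 19.3% of genes tested and 9.12% of all genes. The 14 rises with CCGGAAG included Nol12, Nol7, Polr1e, Rpsa, Mrps18c, Spr, Aktip and Ints12. The windows of Nop58, Pdcd2l, Mrps24 and Mrps9 held no match to it. GGGCGG was in 71.4% and 83.8%, against 66.7% of genes tested and 35.9% of all genes. The other motifs searched on both strands were TATAAA (10.2% of rises, 10.8% of falls and 6.84% of genes tested), GCGCATGC (6.12%, 5.41% and 5.96%), AAGATGGCG (4.08%, 0% and 3.48%), TGACGTCA (2.04%, 0% and 3.33%) and TGATGNAA (2.04%, 2.70% and 2.29%). Over all genes in the table the shares of these 5 were 14.2%, 2.80%, 1.49%, 1.88% and 4.06%. A match describes the letters of the window and is not a bound site. The windows of both classes were rich in G and C, with medians of 62.7% and 63.7% against 61.3% in the genes tested.

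A larger share of the early rises than of the early falls had closed by 13 weeks. The 9 week part of the rule was met by 247 rises and 398 falls. At 13 weeks, 24.7% of these rises and 11.3% of these falls were within 0.4 log2 of the controls, against 40.9% of all 7148 genes with a mean of 5 or more. A difference of over 0.4 in the same direction was kept by 171 rises (69.2%) and 337 falls (84.7%), and 15 rises and 16 falls had turned. Without control mouse 3 at 13 weeks, 68 of 247 rises and 43 of 397 falls were within 0.4, which keeps the order of both shares. The rule was met by 0.492% of all genes as rises and 0.363% as falls, and the same rule with the ages exchanged gave 1346 genes. The median difference of the 61 early-only rises was 0.82 at 9 weeks and 0.13 at 13 weeks, and that of the 45 falls was -0.83 and -0.06. At 13 weeks 45 rises and 31 falls kept the sign of their 9 week difference. So did 4939 of all 7148 genes with a mean of 5 or more, a similar share, so this is no trait of the members.

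**Figure D1:**
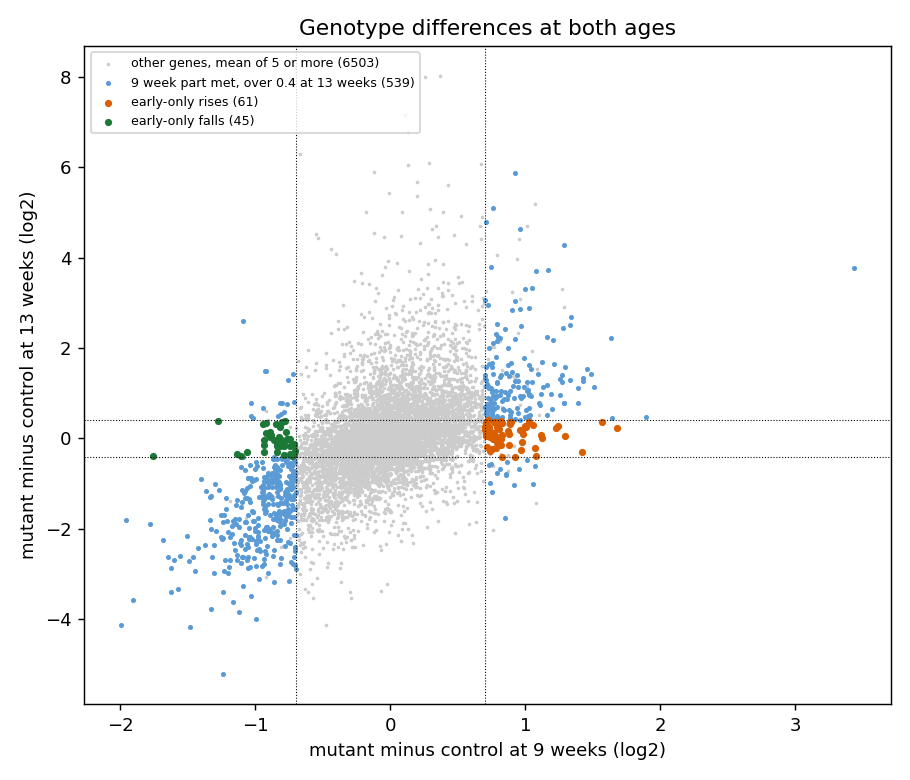
Mutant minus control difference at 9 weeks (x axis, log2) and at 13 weeks (y axis, log2), 1 point per gene with a mean of 5 or more. The dotted lines are the thresholds of the rule, orange and green points are the 61 early-only rises and 45 falls, and blue points are the 539 genes that met the 9 week part but differed by over 0.4 at 13 weeks, most of which keep the direction of their 9 week difference.

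A gap between genotypes can close because the mutants return to the level of the controls or because the controls move to that of the mutants, and the 4 groups show which of them moved. The 9 week mutants are said to stand apart where all 3 lay beyond all 9 other arrays in the direction of the difference, and the 9 week controls where all 3 lay beyond all 9 others on the opposite side. Among the rises the mutants stood apart in 17 (27.9%) and the controls in 14 (23.0%), with 2 in both counts and 32 in neither. Among the falls the mutants stood apart in 13 (28.9%) and the controls in 28 (62.2%), with 3 in both and 7 in neither. Over all 8253 genes tested, the 9 week mutants were above all others in 2.27% and below in 0.703%, and the 9 week controls were below all others in 1.85% and above in 6.25%. All 3 mutants were above all 3 controls at 9 weeks in 15.0% of genes and below in 20.6%, so the rule itself makes these shares high in the members and they are a description. Among genes that met the 9 week part but not the 13 week part, the mutants stood apart in 10.2% of 186 rises and 1.13% of 353 falls, and the controls in 10.2% and 24.6%. Most of these genes kept their difference at 13 weeks, so their 9 week mutants could seldom lie beyond the 13 week mutants. The 13 week part of the rule thus bears on these shares too, and nothing is read from the contrast.

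The rule requires the gap to close but does not set which genotype moves. It does choose genes whose 9 week mutants and controls lay far apart. Spread between mice at 9 weeks can by itself bring both genotypes toward each other at 13 weeks. The movements are therefore a description, and a part due to this choice cannot be told apart. In the rises both genotypes moved. The controls were higher at 13 than at 9 weeks in 52 of 61 rises, with a median change of 0.40, and the mutants were lower in 54, with a median of -0.38. In the falls the movement was mainly that of the controls. These were lower at 13 weeks in 43 of 45, with a median of -0.57, while the mutants were higher in 30 and lower in 15, with a median of 0.25. Over all 8253 genes tested, the controls were higher in 3312 and lower in 4905 (median -0.08), and the mutants higher in 3448 and lower in 4777 (median -0.10). Among genes that met only the 9 week part, the controls were higher in 119 of 186 rises and lower in 279 of 353 falls, with medians of 0.12 and -0.29. A decline of the controls is thus not particular to the early-only falls. The control changes include control mouse 3 at 13 weeks, which lay far from its mates in 17 of the 45 falls. Applied without control mouse 3 at 13 weeks, the rule gave 68 rises and 43 falls, with mutants apart in 31 and 17 and controls apart in 22 and 29.

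**Figure D2:**
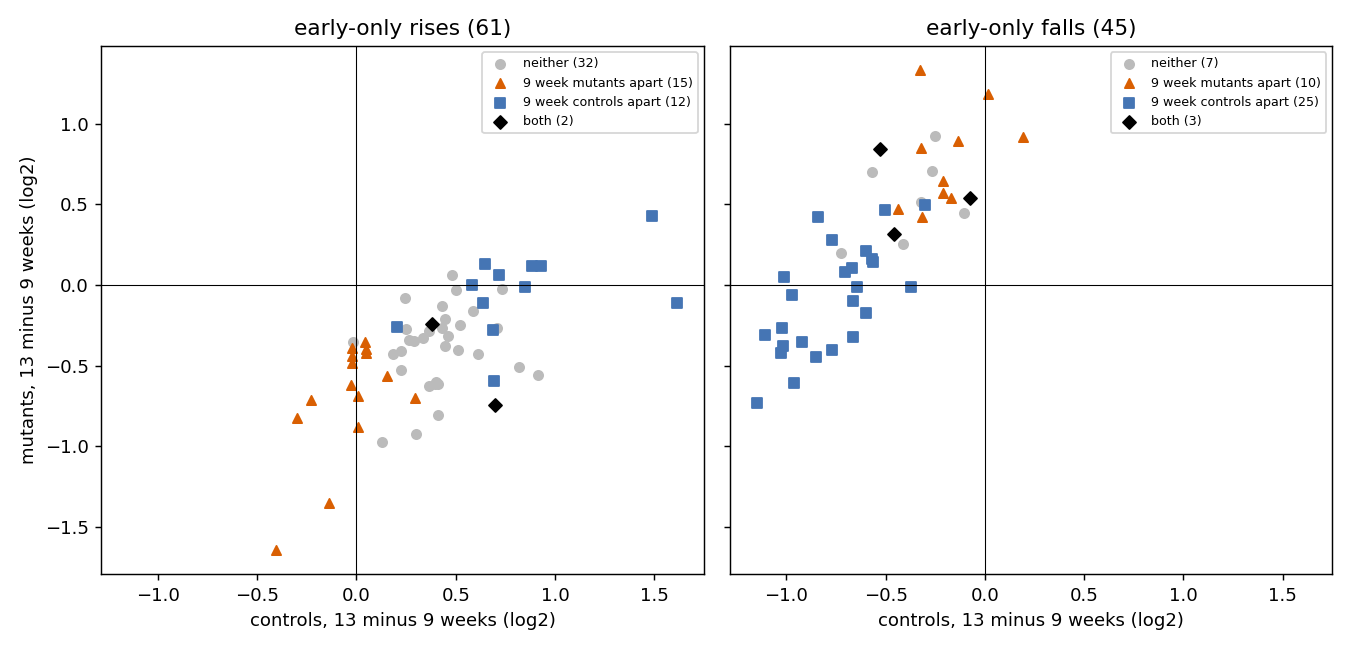
Change from 9 to 13 weeks in controls (x axis, log2) and in mutants (y axis, log2), 1 point per member, with the 61 rises on the left and the 45 falls on the right. Triangles and squares mark members whose 9 week mutants or controls stood apart from all 9 other arrays, diamonds both and circles neither; most rises lie right of and below 0, and most falls lie left of 0.

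Genes of the nucleolus, the ribosome and RNA polymerase I, a group put together after the values were seen, held 10 rises and the fall of Rrn3. The 10 include Znrd1as, whose symbol names it as antisense to Znrd1, so it need not belong to any of these by function. All genes of these kinds were not counted beside them. The 9 week mutants stood apart in 6 of the 10 rises and in Rrn3, and the 9 week controls in 1 rise. Over all 61 rises these shares were 27.9% for mutants and 23.0% for controls, and over all genes tested 2.27% and 1.85%. The group was made from members already seen, so nothing is read from its count. Rrn3 read 8.0, 7.97 and 8.20 in controls and 6.90, 6.96 and 6.91 in mutants at 9 weeks, then 7.96, 7.54 and 8.04 in controls and 7.72, 7.58 and 7.18 in mutants at 13 weeks. The groups were separate at 9 weeks (-1.13 ± 0.18 log2, SE from limma, 3 mice per group) and overlapped at 13 weeks (-0.35). Its single probe set has no known position relative to the deleted part, so it is no check of the deletion.

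Rrp9, a protein of the U3 small nucleolar ribonucleoprotein needed for the first cuts of the ribosomal RNA precursor, was 5.36, 5.25 and 5.68 in controls and 6.13, 6.33 and 6.52 in mutants at 9 weeks. At 13 weeks it was 5.33, 5.18 and 4.88 in controls and 5.70, 4.80 and 6.01 in mutants, where mutant mouse 2 lay below all controls. The difference went from 0.90 to 0.37. Polr1e, a subunit of RNA polymerase I, was 5.81, 5.23 and 5.55 against 6.44, 6.66 and 5.90 at 9 weeks, and 5.34 to 5.66 against 5.61 to 5.82 at 13 weeks. Nol12, a nucleolar RNA-binding protein, differed by 0.71 at 9 weeks, and its controls stayed between 8.27 and 8.64 at both ages while the mutants went from 9.10 to 9.47 down to 8.77 to 8.92. Without control mouse 3 its 13 week difference was 0.41, just over the limit.

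Nop58 took the other course. It was 6.43, 5.93 and 5.61 in controls and 7.14, 6.81 and 6.90 in mutants at 9 weeks (0.96 ± 0.23), and 7.10, 6.61 and 6.91 in controls and 7.34, 6.75 and 7.12 in mutants at 13 weeks. The 3 controls at 9 weeks were the lowest of the 12 arrays, and the other groups overlapped. Rpsa, a protein of the small cytosolic ribosomal subunit, was 12.59, 12.67 and 12.53 in controls and 13.24, 13.38 and 13.63 in mutants at 9 weeks, and spanned 12.59 to 13.33 and 12.87 to 13.12 at 13 weeks. Pdcd2l, a relative of a chaperone for a ribosomal protein, differed by 1.12 at 9 weeks and 0.08 at 13 weeks.

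Mitochondrial genes, also grouped after the values were seen, made up 11 rises and 0 falls. All mitochondrial genes were not counted beside them. Of the separate lists, mitochondrial ribosome genes held 3 members of 73 and mitochondrial energy genes 0 of 102. Top1mt, the mitochondrial topoisomerase, had the greatest 9 week difference of all rises (1.68 ± 0.22, 3.20-fold). It was 4.94, 4.48 and 5.25 in controls and 6.70, 6.27 and 6.74 in mutants at 9 weeks, and 5.59, 5.40 and 5.78 in controls and 5.65, 6.05 and 5.78 in mutants at 13 weeks. The 13 week groups met between those of 9 weeks, so both 9 week groups stood apart. Of the mitochondrial ribosome, Mrps24 was 9.92 to 10.15 in controls and 10.53 to 11.11 in mutants at 9 weeks (0.77), and 9.93 to 10.51 and 10.26 to 10.56 at 13 weeks. Mrps9 differed by 0.71 and 0.10 at the 2 ages, and Mrps18c by 0.70 and 0.18. Other probe sets of Mrps9 with a mean of 5 or more differed by only 0.25 and 0.29 at 9 weeks, and that of Mrps24 by 0.63. The 9 week difference of Mrps18c was 0.67 without mutant mouse 3 and 0.66 without control mouse 3 at 9 weeks, just under the limit. Glrx2, a mitochondrial glutaredoxin, differed by 0.74 at 9 weeks, and at 13 weeks its control mouse 3 was at 11.07 against 9.78 and 9.96. Without that array the 13 week difference of -0.27 was 0.13.

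DNA replication and repair, another group made after the values were seen, gave 4 rises, and all genes of that kind were not counted beside them. Prim2, the large subunit of DNA primase, was 5.85, 5.39 and 6.54 in controls and 7.27, 7.16 and 7.03 in mutants at 9 weeks (1.23 ± 0.25), and 6.11 to 6.39 and 6.24 to 6.64 at 13 weeks. The 9 week mutants were the highest of all arrays. Pold1, the catalytic subunit of DNA polymerase delta, differed by 0.79 and 0.26 (0.53 at 9 weeks without control mouse 3), and Nbn, a part of the complex that senses DNA double-strand breaks, by 0.75 and 0.09. Psmg4, a chaperone of proteasome assembly, differed by 1.12 at 9 weeks and 0.02 at 13 weeks, when mutant mouse 3 stood at 6.30 against 5.20 and 5.58.

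Regulators of transcription and RNA, likewise grouped after the fact, made up 14 rises and 10 falls. All such regulators were not counted beside them. Tcfl5, a basic helix-loop-helix transcription factor, showed the widest gap between the 9 week mutants and all other arrays, 0.88 log2. It was 5.64, 4.84 and 5.67 in controls and 6.55, 6.60 and 6.88 in mutants at 9 weeks (1.29 ± 0.28), and 5.12, 5.42 and 4.39 in controls and 5.12, 5.10 and 4.88 in mutants at 13 weeks. Ago2, the slicing Argonaute of RNA interference, was 5.28, 5.40 and 5.87 against 6.91, 6.55 and 6.32 at 9 weeks. At 13 weeks its order turned, with controls at 6.36 to 6.53 and mutants at 5.69 to 6.24 (-0.40). Gemin7, of the SMN complex that builds spliceosomal particles, differed by 1.05 and 0.29, and without mutant mouse 3 at 9 weeks, which read 7.48 against 6.24 and 6.47, its 9 week difference was 0.68. Ints12, of the Integrator complex, differed by 1.03 and 0.37. Prmt1, the main arginine methyltransferase, rests on 1 array. Control mouse 3 at 9 weeks read 7.13 against 10.34 and 10.14, and without it the difference of 1.42 was 0.38.

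Of the 10 transcription and RNA genes that were lower in mutants, the 9 week controls stood apart in 8 and the mutants in 0. Over all 45 falls these shares were 62.2% for controls and 28.9% for mutants, and over all genes tested 6.25% and 0.703%. The falls as a whole thus lean the same way, and nothing is read from the count in this group. Rere, a corepressor with arginine and glutamic acid repeats, was 8.17, 8.19 and 8.12 in controls and 7.36, 7.22 and 7.37 in mutants at 9 weeks (-0.84 ± 0.13). At 13 weeks it was 7.59, 7.44 and 7.34 in controls and 7.37, 7.41 and 7.41 in mutants. The 9 week controls lay 0.53 above every other array, and the other 3 groups overlapped. Hdlbp, the RNA-binding protein vigilin, was 10.07, 9.75 and 10.07 in controls at 9 weeks, with mutants at 9.16 to 9.33, and 9.08 to 9.30 and 8.73 to 9.01 at 13 weeks. Of its 4 other probe sets, 1 differed the same way at 9 weeks (-0.38) and 3 did not (0.66, 0.04 and 0.50), so its direction depends on the probe set.

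Asxl1, a Polycomb-associated chromatin factor, was 8.11 to 8.34 in controls and 7.40 to 7.63 in mutants at 9 weeks. At 13 weeks its controls were 7.51, 7.61 and 6.71 and its mutants 6.84 to 7.04, and without control mouse 3 the 13 week difference was -0.65. Rfx5, a regulator of MHC class II genes, was 7.51 to 7.87 against 6.71 to 7.23 at 9 weeks, and 6.42 to 6.75 against 6.46 to 6.83 at 13 weeks. Foxo3, a forkhead factor restrained by AKT, differed by -0.94 and -0.31. Nktr, a cyclophilin-related protein with arginine and serine repeats, differed by -0.79 and -0.36. Polr2a, the largest subunit of RNA polymerase II, differed by -0.84 at 9 weeks, and at 13 weeks its control mouse 3 was at 7.12 against 4.45 and 4.76, without which the 13 week difference was 0.55.

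Genes of metabolism, detoxification and cell death included members with tight replicates. Spr was 5.90, 5.89 and 5.94 in controls and 6.76, 6.81 and 7.09 in mutants at 9 weeks (0.98 ± 0.21), and 7.16, 7.23 and 7.81 in controls and 7.19, 7.05 and 7.70 in mutants at 13 weeks. The 9 week controls lay 0.82 below every other array. Septin4, a septin with a proapoptotic isoform, was 10.21, 10.78 and 10.85 in controls and 11.41, 11.67 and 11.68 in mutants at 9 weeks, and 11.41 to 11.76 and 11.66 to 11.77 at 13 weeks. Gsta4, a glutathione transferase that clears 4-hydroxynonenal, differed by 1.07 and -0.22, and Bok, a proapoptotic BCL2 relative, by 0.97 and -0.25. In both, mutant mouse 3 at 9 weeks lay far above its mates, at 9.92 for Gsta4 and 8.26 for Bok. Without that mouse the 9 week difference of Bok was 0.65.

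Ephx1, the microsomal epoxide hydrolase, was the mirror case. It was 8.71, 8.97 and 8.82 in controls and 7.89, 7.95 and 7.99 in mutants at 9 weeks (-0.89 ± 0.13), and 8.57, 8.84 and 8.69 in controls and 8.79, 8.84 and 8.87 in mutants at 13 weeks. The 9 week mutants lay 0.58 below every other array, and the other 3 groups overlapped. Gpd1, the cytosolic glycerol-3-phosphate dehydrogenase, was 8.99 to 9.16 in controls and 7.86 to 8.18 in mutants at 9 weeks, and 8.73 to 9.31 and 8.51 to 8.54 at 13 weeks. Its 13 week groups were still separate, with a difference of -0.40. Pank3, a pantothenate kinase of coenzyme A synthesis, differed by -0.92 and 0.34, and its control mouse 3 at 13 weeks read 7.19 against 8.26 and 8.28, without which the 13 week difference was -0.02.

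Signalling, cytoskeletal and surface genes held the fall of greatest size and, after Top1mt, the rise of greatest size. Rasl11b was 10.16, 10.14 and 9.77 in controls and 8.16, 8.46 and 8.18 in mutants at 9 weeks (-1.76 ± 0.16, 3.38-fold lower). At 13 weeks it was 9.32, 9.62 and 9.54 in controls and 9.02, 9.18 and 9.13 in mutants, so that the groups stayed separate while the gap shrank to -0.38. Both 9 week groups lay beyond all 13 week arrays, the mutants by 0.56 and the controls by 0.15. Epb41l4b, a membrane-cytoskeleton linker with a FERM domain, was 5.88, 5.74 and 6.00 in controls and 7.64, 7.59 and 7.09 in mutants at 9 weeks (1.57 ± 0.19), and 5.57 to 5.89 and 5.81 to 6.30 at 13 weeks. Its 9 week mutants lay 0.79 above every other array. Plvap, a protein of endothelial diaphragms, differed by 1.24 at 9 weeks and 0.27 at 13 weeks, where control mouse 3 was at 7.99 against 6.60 and 6.46.

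**Figure D3:**
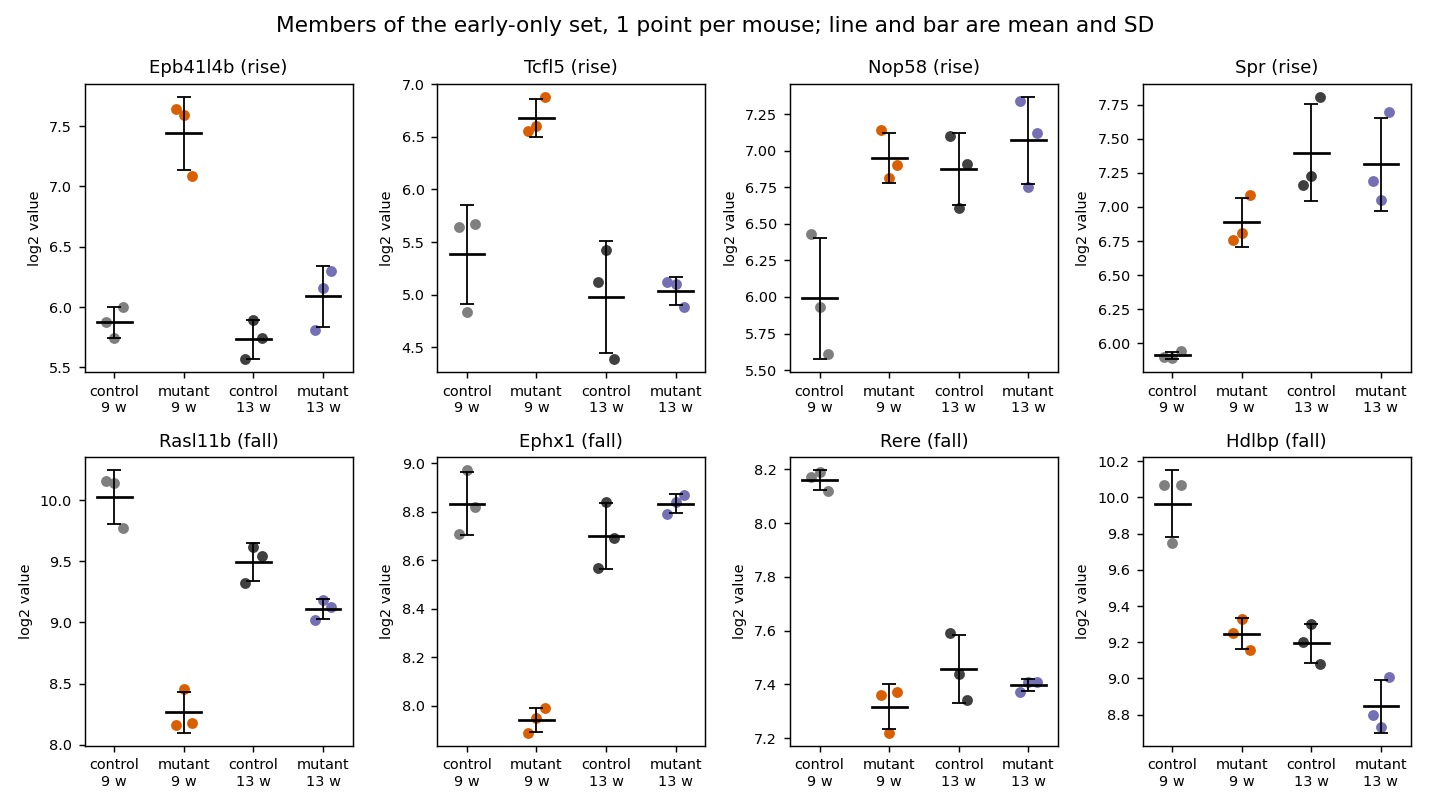
Deposited log2 values of 8 members by group, 1 point per mouse, with the group mean as a line and the SD as a bar. In Epb41l4b, Tcfl5 and Ephx1 the 9 week mutants stand apart, in Nop58, Spr, Rere and Hdlbp the 9 week controls stand apart, and in Rasl11b both do.

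Other members of this group followed either course. Anxa6, a calcium-dependent membrane-binding annexin, was 8.09 to 8.29 in controls and 7.10 to 7.19 in mutants at 9 weeks (-1.06 ± 0.13), and 7.64 to 7.89 and 7.35 to 7.59 at 13 weeks. Its 9 week groups bracketed all 13 week arrays, and its 13 week groups were still separate. Ulk2, a kinase that starts autophagy, was 9.77 to 9.88 against 9.02 to 9.12 at 9 weeks, and 9.02 to 9.39 against 9.16 to 9.30 at 13 weeks. Erc1, a scaffold of the presynaptic active zone, differed by -0.92 and 0.13, Spint1, a Kunitz-type protease inhibitor, by -0.94 and -0.14, and Spata13, a guanine nucleotide exchange factor, by -0.90 and 0.08. For Spata13, mutant mouse 3 at 9 weeks read 6.41 against 7.33 and 7.36, and without it the 9 week difference was -0.59. Aktip, an AKT-interacting protein and a rise, differed by 0.92 at 9 weeks and -0.40 at 13 weeks.

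The members put together after the fact as transporters were 4 falls, and those of the secretory pathway were 9 falls and 1 rise. All transporter or secretory genes were not counted beside them. Slc41a1, a magnesium transporter, was 9.75, 9.58 and 9.94 in controls and 8.47, 8.57 and 8.40 in mutants at 9 weeks (-1.28 ± 0.30). At 13 weeks the mutants were 9.87, 9.86 and 9.71, and the controls 9.00, 8.94 and 10.35. Control mouse 3 alone lay above the mutants, and without it the 13 week difference of 0.38 became 0.84. Calr, the calcium-binding chaperone calreticulin of the endoplasmic reticulum, was 12.07 to 12.42 in controls and 11.25 to 11.72 in mutants at 9 weeks, and 11.58 to 11.92 and 11.57 to 11.69 at 13 weeks. Wdr81, an endosomal protein, differed by -0.95 and 0.32, with a mean just over the limit. Krtcap2, a subunit of the oligosaccharyltransferase, was the 1 secretory rise, at 0.73 and 0.40. Tmem184b, a membrane protein outside these groups, differed by -0.94 and -0.03.

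Of the 106 members, 22 were called for the age contrast over both genotypes (limma, Benjamini-Hochberg adjusted p under 0.05 over 8253 genes), 8 rises and 14 falls. This contrast, the mean of both genotypes at 13 weeks minus that at 9 weeks, is orthogonal to both differences that chose the members in this balanced design, although the rule did use the spread at 9 weeks. The share of all genes tested was 27.8%, with 12.3% higher and 15.4% lower at 13 weeks, and that of the members was 20.8%. Among the other 2816 genes with a mean of 5 or more and a 13 week difference of at most 0.4, 2.88% were higher and 12.6% lower. Of the 61 rises, 4 were higher and 4 lower at 13 weeks, and of the 45 falls, 2 were higher and 12 lower. With a term for sex, 12 members were called. Without control mouse 3 at 13 weeks, 8 members were higher and 19 lower.

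Of the 14 falls called, the 12 that were lower at 13 weeks had their 9 week controls apart, and the other two had their 9 week mutants apart. A group that stands apart also enters the age contrast, so the 2 measures are related. Hdlbp (-0.58 ± 0.10, adjusted p = 0.00173), Asxl1 (-0.78, adjusted p = 0.00277), Rfx5 (-0.64, adjusted p = 0.0041) and Rere (-0.31 ± 0.09, adjusted p = 0.0227) fell with age in the limma fit. Ralgps2, a guanine nucleotide exchange factor for Ral, fell by 0.94 (adjusted p = 0.0115). Wbp1l, a membrane adaptor, rose by 0.60 (adjusted p = 0.0204) and Ephx1 by 0.38 (adjusted p = 0.0114). Among the rises, Spr rose by 0.96 ± 0.15 (adjusted p = 0.000765), Septin4 by 0.53 (adjusted p = 0.0119) and Nop58 by 0.50 (adjusted p = 0.0391), while Tcfl5 fell by 1.02 ± 0.20 (adjusted p = 0.00264), Epb41l4b by 0.74 ± 0.13 (adjusted p = 0.00184) and Rrp9 by 0.56 (adjusted p = 0.0484). These are means of the 2 genotypes, and a call need not be a change that both share. From 9 to 13 weeks Ephx1 changed by -0.13 in controls and 0.89 in mutants, and Wbp1l by 0.01 and 1.19. Rere changed by -0.70 and 0.08, and Epb41l4b by -0.14 and -1.35. In Spr (1.49 and 0.43) and Asxl1 (-0.96 and -0.61) both genotypes moved the same way. With the probe sets of each gene averaged, the age effect of Hdlbp was 0.0357 (adjusted p = 0.844), which ends the call and turns its direction. Over the 12 fits that left out 1 array, Rrp9 lost its call in 10 (adjusted p = 0.0668 without control mouse 3 at 13 weeks), Nop58 in 7, and Rere and Wbp1l in 4 each. With a term for sex the adjusted p was 0.0519 for Rere, 0.0528 for Wbp1l, 0.0556 for Nop58 and 0.0954 for Rrp9. Rrn3 changed by 0.18 ± 0.13 with age over both genotypes and was not called (adjusted p = 0.311).

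For the contrasts that the rule used, the limma calls are given only as background. The 9 week difference was called in 58 members and in 5.0% of all genes tested, the difference between the ages in 26 and 18.4%, and the 13 week difference in 2 and 45.4%. Nothing is read from these counts.

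Members made up 1.28% of all genes tested, and the lists of related genes are read beside that share. The 13 week part of the rule bears on it as well. Of all genes tested 39.9% lay within 0.4 at 13 weeks. This share was 72.6% in the mitochondrial ribosome list, 55.6% in ribosome biogenesis and 75.0% in cytosolic ribosomal proteins. Of 73 mitochondrial ribosome genes tested, 3 were early-only rises (4.11%). The 9 week part alone was met by 6 of the 73, against 645 of all 8253 genes tested, a similar share. The list had a median difference of 0.30 at 9 weeks and 0.01 at 13 weeks, against -0.02 and 0.00 over all genes tested, and 61 of the 73 were above 0 at 9 weeks. Of 81 ribosome biogenesis genes, 4 were rises (Nop58, Nol12, Rrp9 and Polr1e) and 1 was the fall of Rrn3 (6.17% together), with list medians of 0.25 and 0.18. Of 44 cytosolic ribosomal protein genes 1 was a rise (2.27%), with medians of 0.21 and 0.03. The 102 mitochondrial energy genes, which hold the respiratory chain and glycolysis, gave 0 members and medians of -0.11 and -0.18. Antioxidant genes gave 2 rises (Gsta4 and Glrx2) of 43 (4.65%), cell cycle and replication genes 2 (Prim2 and Pold1) of 74, p53 and DNA damage genes 1 (Nbn) of 48, and apoptosis genes 1 (Bok) of 35. Falls came from the autophagy and mTOR list (Ulk2 and Foxo3 of 54, 3.70%), the stress response list (Calr of 58) and the splicing list (Nktr of 90).

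The lists of neuronal genes had medians further from 0 at 13 weeks than at 9 weeks. The 42 medium spiny neuron genes had medians of -0.58 at 9 weeks and -2.11 at 13 weeks, the 47 synapse and vesicle genes -0.26 and -1.06, and the 58 ion channel and pump genes -0.34 and -1.29. The 30 immediate early genes had medians of 0.24 and 0.94. These 4 lists and the 11 lists of cell type markers held 0 members, and at the overall share of 1.28% each is too short for that to tell it from other genes. In some the 13 week part of the rule also left few or no genes that could be members. Within 0.4 at 13 weeks were 2 of the 42 medium spiny neuron genes, although 15 met the 9 week part. The same held for 0 of 19 microglia markers and 0 of 11 reactive astrocyte markers, but for 6 of 11 oligodendrocyte markers.

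**Figure D4:**
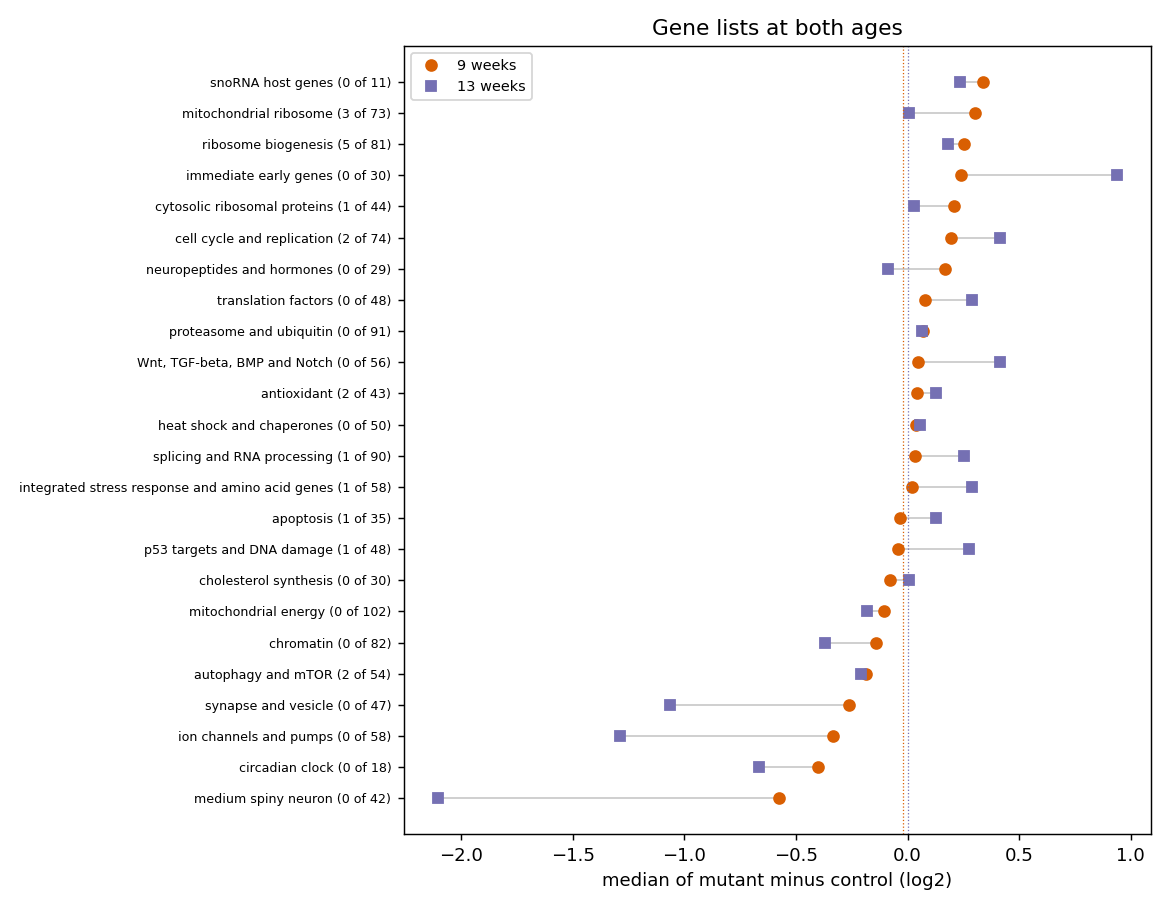
Median mutant minus control difference (x axis, log2) of each gene list at 9 weeks (circles) and 13 weeks (squares), with the number of early-only members of the genes tested in brackets and dotted lines at the medians of all genes tested. The mitochondrial ribosome list goes from 0.30 to 0.01, while the medium spiny neuron list goes from -0.58 to -2.11.

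Genes near the thresholds differed little across them. Mrps18c and Ralgps2 were just inside the 9 week limit at 0.7033 and -0.7033, and Cibar1 and Fbxl20 just outside at 0.6967 and -0.6967. At 13 weeks Aktip (-0.40) and Krtcap2 (0.40) were inside, and Pecr (0.4033) and Eepd1 (-0.41) outside. For the mean, Polr2a (5.21) and Wdr81 (5.22) were inside, and Nudt14 (4.97) and Acsf3 (4.76) outside. The members' other probe sets read the same RNA and are a description too. Of 52 with a mean of 5 or more, in 38 members, 46 had the sign of the chosen probe set at 9 weeks and 31 separated the groups the same way. At 13 weeks, however, 23 of the 52, in 21 members, differed by over 0.4, 20 of them in the direction of the member's 9 week difference. Among these were other probe sets of Anxa6 (-0.79), Ulk2 (-0.75), Foxo3 (-0.60), Aktip (0.64) and Prim2 (0.46), so the small 13 week difference of these members holds for the chosen probe set. The 6 of opposite sign belonged to Hdlbp (3), Higd1a, Tpm1 and Slc38a10, and 47 members had 1 probe set.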

How the data were processed

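RNA from the striatum of 12 mice was hybridised to Affymetrix arrays. The authors processed the signals with GCRMA, per the submitters' processing notes (version not given in the sources used here), and deposited log2 values. Over 22690 probe sets the values lay between 1.09 and 15.48, with medians per array of 5.29 to 5.52. The deposited values were used without further normalization. Array controls (64) were dropped. By the platform annotation 20380 probe sets name a single gene, 691 name more and 1555 name none, and only the first kind entered the comparisons. The RefSeq table changed 0 symbols. Each of 12393 genes was represented by its probe set with the highest mean.

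Genes above the 40th percentile of an array (3.51 to 3.81) in at least 3 arrays, 8253 in all, were fitted with limma 3.58.1 (lmFit and eBayes) in R 4.3.3, with 1 coefficient per group and 8 residual degrees of freedom. Two-sided p-values were corrected after Benjamini and Hochberg. The number of arrays limits the precision. The fit was tested on simulated data. The members and lists were chosen with earlier results of these data known, and the groups of members by role, like the promoters shown, after the values had been seen. Members are named where they were among the 12 largest rises or falls, belonged to a list, had 1 of the 5 smallest p-values for age each way or 1 of the 4 widest gaps of a group that stood apart, or lay nearest a threshold, and others are named only in counts or for their other probe sets. Thresholds, normalization, probe set choice, filters, array weights, the prior, sex, the replicate block and leaving out each array were the alternatives. The design text mentions 5 arrays for each condition, and 12 in all were analysed. Some genes are not reported here.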

Additional observations from a re-analysis of the deposited data

Results flagged for a closer look

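Probe sets with several gene symbols or none took no part in the comparisons. Of 2246 such probe sets, 868 had a mean of 5 or more, and 13 met the early-only rule (1.5% of the 868), 10 higher and 3 lower in mutants at 9 weeks. They are not named, because the annotation gives them no single gene.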

How the results depend on the processing

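The rule gave 61 rises and 45 falls. Other limits gave 168 and 161 (0.5 at 9 weeks), 14 and 5 (1 at 9 weeks), 28 and 25 (0.2 at 13 weeks), and 95 and 70 (0.6 at 13 weeks). Every probe set on its own gave 109 and 71, and averaging the probe sets of each gene gave 49 and 23. With that average, the 9 week controls stood apart in 26 members (13 falls) and the mutants in 7 falls, the 9 week difference of Hdlbp turned to 0.02 and its age effect to 0.0357 (adjusted p = 0.844). Median centring gave 28 rises with the mutants apart, and split the age calls into 874 higher and 1841 lower genes (32.2% higher), against 1017 and 1275 (44.4%). It moved the median age change of all genes from -0.09 to -0.17. Array weights, whose fit did not converge, called 5274 genes and 56 members for age against 2292 and 22, and a sex term called 12 members.

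Leaving out 1 array at a time gave 54 to 84 rises and 38 to 66 falls. The mutants stood apart in 25 to 55 members (13 to 35 rises, 10 to 20 falls) and the controls in 41 to 81 (15 to 33 rises, 22 to 48 falls). Mutants apart rose to 48 without mutant mouse 1 and 55 without mutant mouse 3 at 9 weeks, and also to 48 when control mouse 3 at 13 weeks was left out, and controls apart to 81 without control mouse 2 at 9 weeks. A group of 2 is more easily apart than one of 3. Age was called in 1616 to 3295 genes and 12 to 27 members.

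Mice with the same replicate number deviated together slightly more than others (r from -0.12 to 0.316, median 0.084, over 18 pairs, against -0.243 to 0.172, median -0.031, over 36), but not in every pair, so the numbers were not taken to pair them. The replicate block gave 66 rises (mutants apart in 29 and controls in 24, against 17 and 14) and 47 falls (16 and 30, against 13 and 28), and 2337 genes and 20 members called for age.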
